A study of Homo sapiens with 6 samples.

Results

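The unfolded protein response and endoplasmic reticulum (ER) folding genes described here are 37 genes taken by symbol, by a rule that uses none of their measured values. They encode the sensors of misfolded protein, the chaperones and disulphide isomerases that fold secretory proteins, the machinery that degrades those that fail to fold, and parts of the translocation and export route. Of the 37, 35 had at least 1 probe set that the platform annotation assigns to that symbol alone, and together they held 93 of the 54613 probe sets other than controls. PDIA5 and SYVN1 were the other members. Their probe sets also carry a microRNA symbol, so no value is given for them. All 35 genes had a probe set bright enough to be tested, among 12810 measured genes, and 82 of their 93 probe sets were tested.

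The cells were K562, an established line from chronic myelogenous leukaemia that carries the BCR-ABL1 fusion kinase. The CA group was exposed to 25 nM CA for 3 h (CA is cortistatin A, which blocks the kinases CDK8 and CDK19 of the Mediator complex), and the DMSO group to the vehicle for 3 h, with 3 arrays in each. The 3 wells of a group held 500000 to 800000 cells per mL, and nothing states that they were independent cultures, so the p values measure the spread between wells of this line. Values are log2 signals on the RMA scale, in which the arrays are brought to a common level.

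Proteins that enter the ER are folded by HSP70 and HSP90 family chaperones, by lectin chaperones that bind their sugars, and by enzymes that form disulphide bonds. When unfolded protein builds up, 3 membrane sensors respond: ATF6 is cut to release a transcription factor, ERN1 (IRE1) splices the mRNA of XBP1, and EIF2AK3 (PERK) phosphorylates the translation initiation factor eIF2. The factors made by the ATF6 and ERN1 branches bind ER stress elements in promoters and raise transcripts for chaperones and for ER-associated degradation. The arrays read transcript level only, so cutting of ATF6, splicing of XBP1 and phosphorylation of eIF2 were not measured.

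ER stress elements are the sequence feature that many of these genes share, and the elements are shown because the best known transcripts of the response, HSPA5 and HERPUD1, carry them. The windows searched were RefSeq promoters on GRCh38.p14, of 300 bases, from 250 before to 50 after the annotated start, and 34 of the 37 genes had 1 or more. The ER stress element (ERSE), CCAAT and CCACG with a spacer of 9 bases of any kind between them, was searched on both strands. It was present in 8 of the 34 genes, 23.5%, and in 0.0916% of the 27305 genes with a window. The second form (ERSE-II), ATTGG and CCACG with a spacer of 1 base, was present in 3 of the 34 genes, 8.82%, and in 0.0696% of all genes. The 2 sets of genes did not overlap, so 11 members held an exact match to one or the other. The unfolded protein response element TGACGTGG was present in DNAJC10 and HYOU1, 5.88% of the 34, and in 0.927% of all genes. In HYOU1 it overlapped an ERSE-II. Of 55 genes with a window on a wider ER list, described below, 1 held an ERSE, 0 an ERSE-II and 8 the element TGACGTGG. A match is a description of these letters and does not show that a factor binds there.

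The 250 bases before the start of HSPA5 (chr9:125241344-125241593, minus strand) and of HERPUD1 (chr16:56931892-56932141, plus strand) are given 5′ to 3′ along the gene, with the fixed letters of the matched element in capitals. The ERSE of HSPA5 begins 66 bases before the start, and the ERSE-II of HERPUD1 begins 117 bases before it.
HSPA5: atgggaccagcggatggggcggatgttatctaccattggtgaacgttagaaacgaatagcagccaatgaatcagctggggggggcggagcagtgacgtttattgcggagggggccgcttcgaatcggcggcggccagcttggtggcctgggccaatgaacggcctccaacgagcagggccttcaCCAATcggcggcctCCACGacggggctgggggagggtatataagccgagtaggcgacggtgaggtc
HERPUD1: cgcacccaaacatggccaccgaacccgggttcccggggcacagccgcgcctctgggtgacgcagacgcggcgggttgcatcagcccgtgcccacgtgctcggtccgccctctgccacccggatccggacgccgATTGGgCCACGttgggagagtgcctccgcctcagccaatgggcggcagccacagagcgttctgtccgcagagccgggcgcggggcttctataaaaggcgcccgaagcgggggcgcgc

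The matches in the other members are given with up to 20 bases on each side, in the direction of the gene. An element on the opposite strand reads as CGTGG followed by ATTGG for ERSE and as CGTGG followed by CCAAT for ERSE-II. They lie at chr22:28800583-28800641 for XBP1, chr12:103930196-103930254 and chr12:103930301-103930359 for HSP90B1, chr19:12938364-12938422 for CALR, chr5:179698758-179698816 for CANX, chr22:49918534-49918592 for CRELD2, chr2:10812833-10812891 for PDIA6, chr3:150546690-150546746 for SERP1, chr11:119057360-119057410 and chr11:119057254-119057304 for HYOU1, and chr22:21642094-21642144 for SDF2L1.
XBP1 ERSE: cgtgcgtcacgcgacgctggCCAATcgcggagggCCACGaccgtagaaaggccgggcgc
HSP90B1 ERSE, same strand: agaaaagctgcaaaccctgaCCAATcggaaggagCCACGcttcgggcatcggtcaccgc
HSP90B1 ERSE, opposite strand: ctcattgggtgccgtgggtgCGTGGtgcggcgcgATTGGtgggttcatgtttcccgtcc
CALR ERSE: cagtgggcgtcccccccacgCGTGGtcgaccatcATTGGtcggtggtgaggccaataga
CANX ERSE: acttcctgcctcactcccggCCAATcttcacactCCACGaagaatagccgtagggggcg
CRELD2 ERSE: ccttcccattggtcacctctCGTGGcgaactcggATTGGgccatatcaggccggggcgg
PDIA6 ERSE: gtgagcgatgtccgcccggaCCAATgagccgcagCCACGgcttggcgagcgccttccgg
SERP1 ERSE: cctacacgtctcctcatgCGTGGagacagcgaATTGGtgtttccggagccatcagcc
HYOU1 ERSE-II, farther from the start: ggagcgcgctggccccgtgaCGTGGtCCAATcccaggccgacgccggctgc
HYOU1 ERSE-II, nearer to the start: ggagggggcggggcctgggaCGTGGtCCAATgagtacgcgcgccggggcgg
SDF2L1 ERSE-II: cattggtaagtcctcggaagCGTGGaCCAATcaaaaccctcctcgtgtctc

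On the RMA scale, which brings the arrays to a common level, the ER genes as a group lay close to DMSO after 3 h of CA. A shift shared by most transcripts would not show on that scale. None of the 35 passed the test, as was so for almost all measured genes. The comparison used limma, a linear model with moderated variance, over all 27307 tested probe sets, and a gene was called at a Benjamini-Hochberg adjusted p under 0.05, read from its brightest tested probe set. By limma 0 of 35 ER genes were called, where 0.0859% of all measured genes were, and the smallest adjusted p among the 35 was 0.252. At that share a count of 0 among 35 does not set the ER genes apart. The median log2 change, CA minus DMSO, was 0.00 over the 35 and -0.01 over all measured genes. Fitted changes lay between -0.27 for HERPUD1 and 0.21 for DNAJB9. At an unadjusted p under 0.05 there were 6 ER genes, 17.1%, where 8.61% of all measured genes reached that p. Above DMSO there was 1, where 3.59% of all genes were at that p and above, and below DMSO there were 5, where 5.02% were. These 6 were DNAJB9 above DMSO, and HSPA5, HERPUD1, MANF, DNAJC3 and DERL2 below it. The 3 arrays of CA did not overlap the 3 of DMSO for 8 of the 35 genes, which is 22.9% where all measured genes gave 16.1%. CA was the higher group for 2 of the 8, against a share of 6.14% over all genes, and the lower group for 6, against 9.95%. The ER genes were brighter than all measured genes, with median signals of 8.38 and 6.45. With a filter at the 75th percentile of signal, 7 of 33 ER genes had an unadjusted p under 0.05, where 13.21% of all measured genes did. The part of signal level in these shares was not tested. In a culture of a single line, a change in the cells that make a transcript and a change in its amount per cell cannot be told apart.

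The intervals of these changes were narrow. On the brightest probe sets the median standard error of an ER gene was 0.05 on the log2 scale. The 95% confidence interval lay wholly inside a 1.2-fold change in either direction for 27 of the 35 genes, and inside a 1.5-fold change for all 35. The widest of these 35 intervals reached 1.36-fold, for HERPUD1. Over all 82 tested ER probe sets, 58 had an interval inside a 1.2-fold change and 81 inside a 1.5-fold change, and the widest reached 1.59-fold, for a dimmer probe set of SEL1L. These intervals are per probe set and not adjusted for their number, and they hold for the main fit on the RMA scale only. HERPUD1 had a standard error of 0.071 in that fit and 0.188 with a labelling covariate described below.

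**Figure D1:**
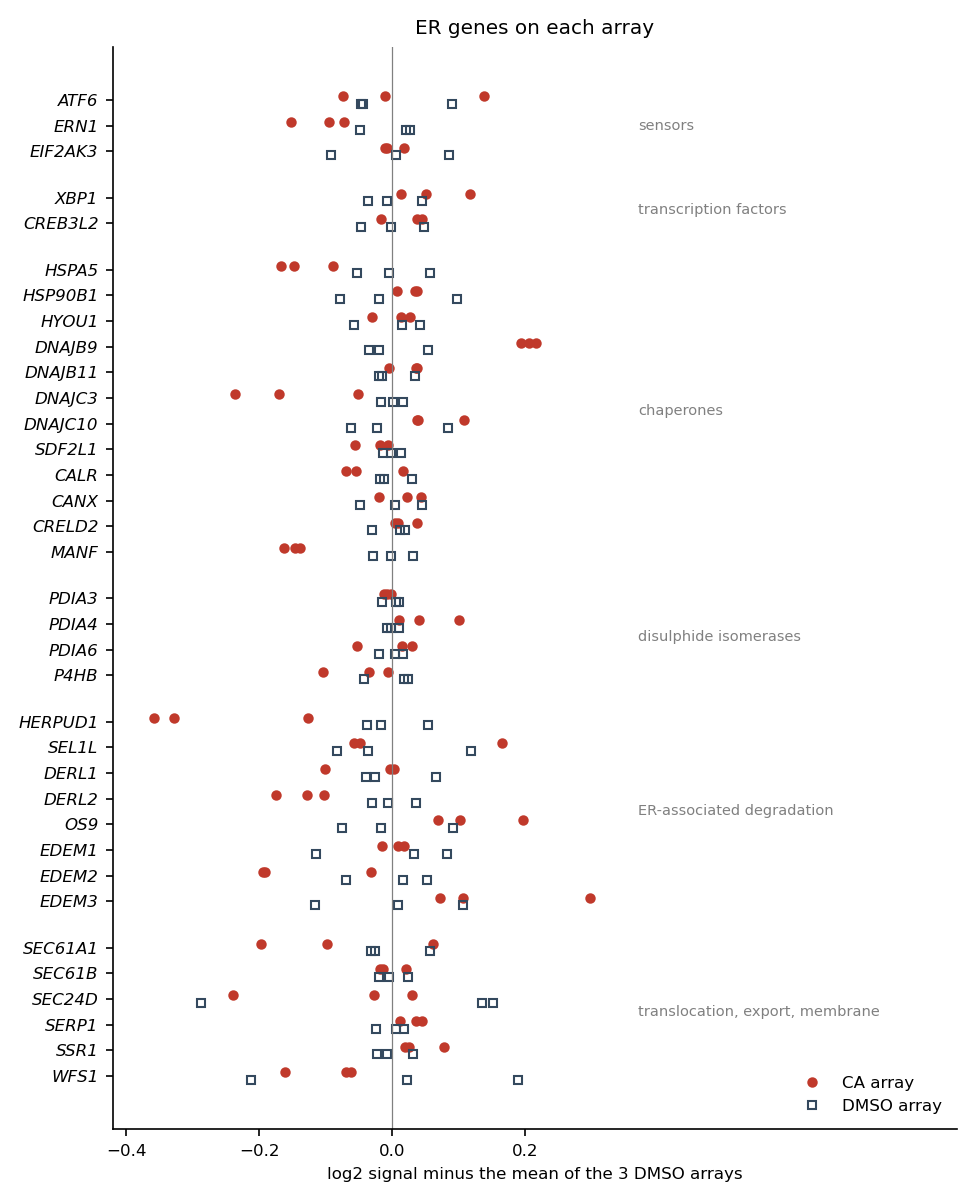
Log2 signal of each of the 35 ER genes on every array, minus the mean of its 3 DMSO arrays, with genes grouped by role down the page (filled circles, CA arrays; open squares, DMSO arrays). The CA arrays of DNAJB9 and PDIA4 lie to the right of all DMSO arrays and those of HERPUD1, HSPA5, MANF, DNAJC3, DERL2 and ERN1 to the left, while the other genes overlap.

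**Figure D2:**
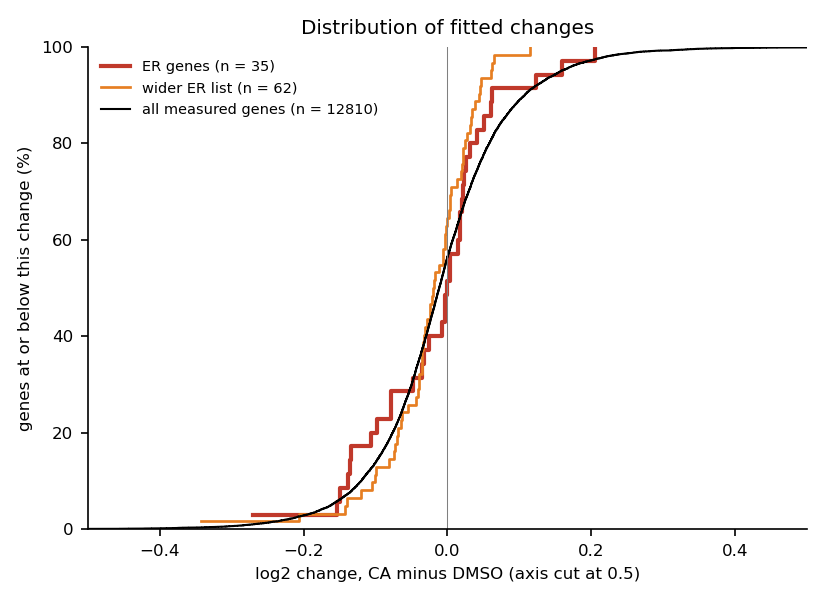
Cumulative share of genes, in percent, at or below each log2 change (CA minus DMSO) for the 35 ER genes, the 62 measured genes of a wider ER list and all 12810 measured genes. The 3 curves cross 50% near a change of 0, at medians of 0.00, -0.02 and -0.01.

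The sensors showed no transcript change past the threshold. ATF6 had log2 signals of 7.95, 7.74 and 7.80 on the CA arrays, against 7.90, 7.77 and 7.77 on the DMSO arrays, and the groups overlapped, with a change of 0.02 (95% confidence interval -0.15 to 0.19). A dimmer ATF6 probe set had all CA arrays above DMSO, at 0.13 (-0.01 to 0.27, limma adjusted p = 0.559). The remaining ATF6 probe sets gave -0.07 and -0.01, with overlapping groups. EIF2AK3 had 6.91, 6.94 and 6.91 in CA and 6.93, 7.01 and 6.83 in DMSO. Its CA arrays lay within the range of the DMSO arrays, and its fitted change was 0.00 (-0.13 to 0.13). ERN1 was read at 5.87, 5.95 and 5.93 in CA, against 5.98, 6.05 and 6.05 in DMSO. All 3 CA arrays of ERN1 lay below all 3 DMSO arrays, at a change of -0.11 (-0.22 to 0.00, limma adjusted p = 0.551). A dimmer probe set of ERN1 lay on the other side, with a mean of 3.99 in CA and 3.75 in DMSO (change 0.24, limma adjusted p = 0.429), so the probe sets of this gene disagree.

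The transcription factors lay close to 0. XBP1, the target of ERN1 splicing, had 7.75, 7.69 and 7.65 in CA and 7.60, 7.68 and 7.63 in DMSO. The groups overlapped, and the change was 0.06 (-0.06 to 0.18, limma adjusted p = 0.763). CREB3L2, an ER-anchored factor of the same kind as ATF6, had a change of 0.02 (-0.09 to 0.13).

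Among the 12 chaperones and cofactors, 0 were called, 7 fitted values lay above DMSO and 5 below, and 4, 33.3% where all measured genes gave 8.61%, had an unadjusted p under 0.05: HSPA5, DNAJB9, DNAJC3 and MANF. HSPA5 (BiP) is the HSP70 of the ER lumen and the usual readout of the response. Its brightest probe set gave 11.29, 11.35 and 11.28 in CA, against 11.44, 11.50 and 11.39 in DMSO. All CA arrays lay below all DMSO arrays by a small margin, and the change was -0.13 (-0.25 to -0.02, limma adjusted p = 0.469).

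The second probe set of HSPA5 gave the largest difference of the 82 tested ER probe sets and missed the threshold narrowly. It read 6.42, 6.47 and 6.39 in CA, against 6.81, 6.88 and 6.87 in DMSO, so the groups were separated by more than the range within either. The change was -0.43 (-0.54 to -0.32), a level 1.34-fold lower in CA, at an adjusted p of 0.0553 by limma. This probe set was singled out after its values were seen. Of 18 alternative settings it lay below DMSO in 18 and was called in 2: with a prior variance that follows the signal (adjusted p = 0.00169) and with a filter at the 75th percentile of signal (adjusted p = 0.00441), where the other 16 gave adjusted p of 0.0574 to 0.909. The probe sets of HSPA5 thus had the same sign and differed in size, and the annotation used here does not say which part of the transcript each one reads.

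DNAJB9 (ERdj4) is a J-domain partner of HSPA5 in the ER and holds no exact ERSE or ERSE-II in its window. It gave 8.07, 8.08 and 8.06 in CA, against 7.92, 7.84 and 7.83 in DMSO. The CA arrays lay close together and all above DMSO, with a change of 0.21 (0.10 to 0.31), 1.15-fold, at an adjusted p of 0.252 by limma, the smallest of the 35 genes. Its other probe sets had changes of 0.22 and 0.13, the last with overlapping groups. DNAJB9 and HSPA5, which work together on the same substrates, had fitted changes of opposite sign, neither past the threshold.

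MANF is a small secreted ER protein that is induced by ER stress and binds HSPA5. It gave 8.31, 8.32 and 8.29 in CA and 8.43, 8.45 and 8.49 in DMSO. The groups did not overlap, with a change of -0.15 (-0.25 to -0.05, limma adjusted p = 0.346). DNAJC3 (P58IPK), another ER co-chaperone, gave 7.78, 7.59 and 7.66 in CA and 7.81, 7.83 and 7.85 in DMSO. Its CA arrays were lower and more spread (SD 0.09 in CA and 0.02 in DMSO), and the change was -0.15 (-0.29 to -0.02, limma adjusted p = 0.484). The other 3 tested probe sets of DNAJC3 had changes between -0.05 and 0.03.

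HSP90B1 (GRP94), the HSP90 of the ER, was read at 9.25, 9.26 and 9.23 in CA and 9.14, 9.20 and 9.32 in DMSO. The CA arrays lay inside the DMSO range, with a change of 0.03 (-0.11 to 0.16). The change was 0.00 for HYOU1, an HSP70-like nucleotide exchange factor for HSPA5, 0.02 for the co-chaperone DNAJB11, 0.06 for the reductase co-chaperone DNAJC10, -0.03 for SDF2L1 and 0.02 for CRELD2. The lectin chaperones calreticulin (CALR) and calnexin (CANX) had changes of -0.03 and 0.01 on their brightest probe sets. Other probe sets of CANX gave 0.17, 0.20 and -0.10, each without overlap, so CANX is uncertain in sign as well as size. The dimmer CALR probe sets gave 0.07, with all CA arrays above DMSO, and -0.16 (limma adjusted p = 0.408), with all CA arrays below.

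On their brightest probe sets the disulphide isomerases lay close to 0. PDIA3, PDIA6 and P4HB, which form and rearrange disulphide bonds, had changes of -0.01, 0.00 and -0.05, and PDIA4 of 0.05, with its CA arrays all just above DMSO. None of the 4 measured isomerases had an unadjusted p under 0.05, and all 4 intervals lay within 0.16 of 0 on the log2 scale. The 4 probe sets of PDIA6 lay between 0.00 and 0.03. A dimmer probe set of PDIA3 lay at -0.15 (-0.26 to -0.04, limma adjusted p = 0.388), with all CA arrays below DMSO, and another at 0.06. The dimmer probe sets of P4HB gave 0.06 and 0.11 and that of PDIA4 -0.07, all with overlapping groups.

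**Figure D3:**
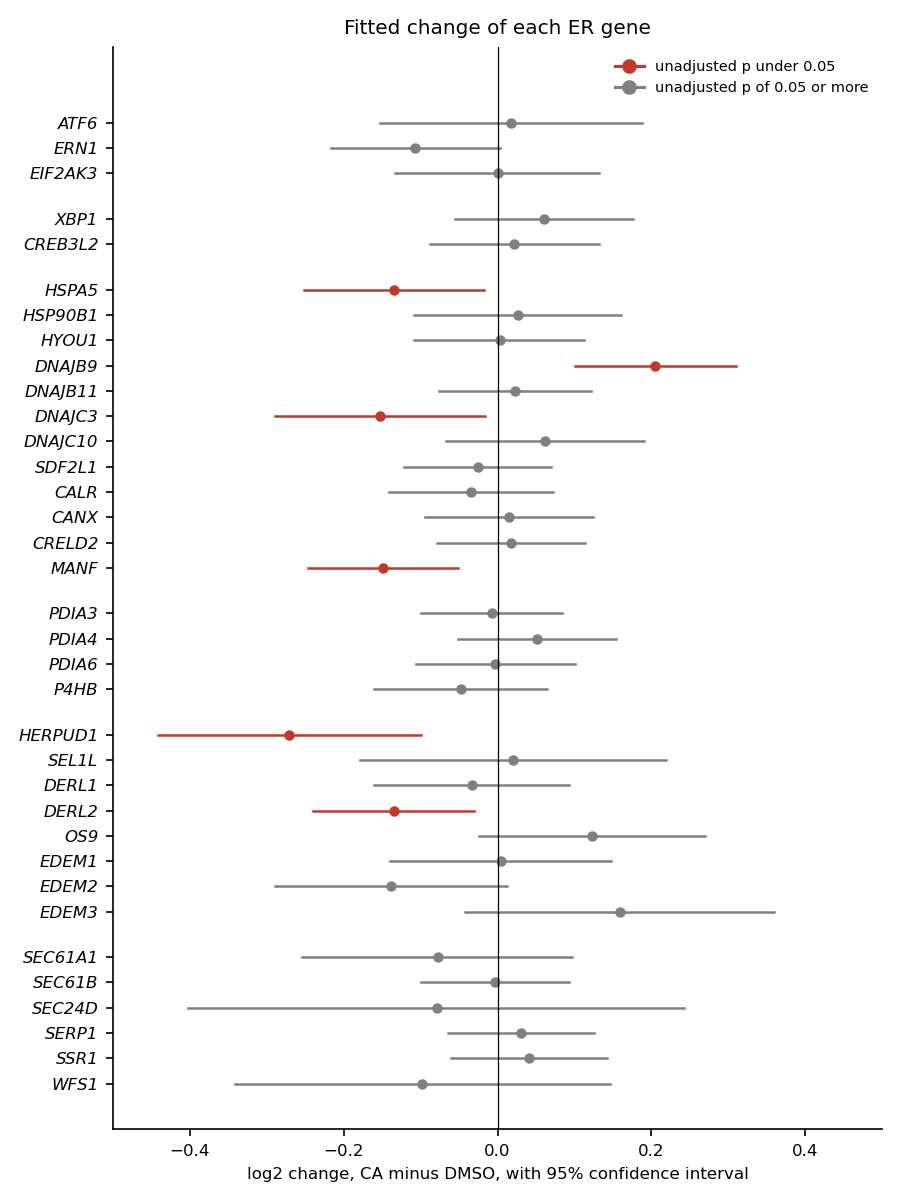
Fitted log2 change (CA minus DMSO) of each ER gene with its 95% confidence interval, grouped by role. The 6 genes at an unadjusted p under 0.05 are drawn in red, and 0 of the 35 passed after adjustment.

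Of the 8 measured genes of ER-associated degradation, which returns misfolded proteins to the cytosol for the proteasome, 0 were called, with 4 fitted values above DMSO and 4 below. HERPUD1, a membrane protein of the degradation complex and a strongly stress-induced transcript, gave 8.88, 8.68 and 8.65 in CA, against 9.06, 8.99 and 8.97 in DMSO. CA array 1 was the nearest to DMSO, yet the groups did not overlap. The mean was 8.732 ± 0.126 in CA and 9.003 ± 0.048 in DMSO (SD, n = 3 each), a change of -0.27 (-0.44 to -0.10), 1.21-fold lower, at a limma adjusted p of 0.341. This was the largest change of the 35 genes by size, and without CA array 1 it was -0.34.

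DERL2, a derlin of the channel through which substrates leave the ER, gave 7.85, 7.78 and 7.83 in CA and 7.95, 7.93 and 7.99 in DMSO. The groups did not overlap, with a change of -0.14 (-0.24 to -0.03, limma adjusted p = 0.406), while its second probe set gave -0.02. DERL1 had a change of -0.03. The mannosidase-like proteins EDEM1, EDEM2 and EDEM3, which mark glycoproteins for degradation, had changes of 0.00, -0.14 and 0.16, with overlapping groups for each. The lectin OS9 had 0.12 and the ligase adaptor SEL1L 0.02. On their brightest probe sets, genes of this branch scattered to either side of 0 more widely than the isomerases did, and that difference was not tested. The branch was also dimmer, with a median signal of 7.63 against 10.57 for the isomerases. Its median standard error was larger, 0.062 against 0.043.

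The translocation, export and membrane genes gave 0 calls and 0 of 6 at an unadjusted p under 0.05. SEC61A1 and SEC61B, subunits of the translocon, had changes of -0.08 and 0.00. SERP1 and SSR1, which associate with the translocon, had changes of 0.03 and 0.04. SEC24D, a cargo adaptor of export vesicles, and WFS1, an ER membrane protein, had the widest spread between arrays in this role group, with changes of -0.08 (-0.40 to 0.24) and -0.10 (-0.34 to 0.15).

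Counted by probe set, 13 of the 82 tested ER probe sets, 15.9%, had an unadjusted p under 0.05, 5 above and 8 below DMSO, where 9.31% of all tested probe sets did. The groups did not overlap for 19 of the 82, 23.2%, where 15.6% of all tested probe sets were without overlap. Of the 22 genes with several tested probe sets, 17 had fitted changes of both signs. The probe sets of a gene share their transcript and are not replicates.

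**Figure D4:**
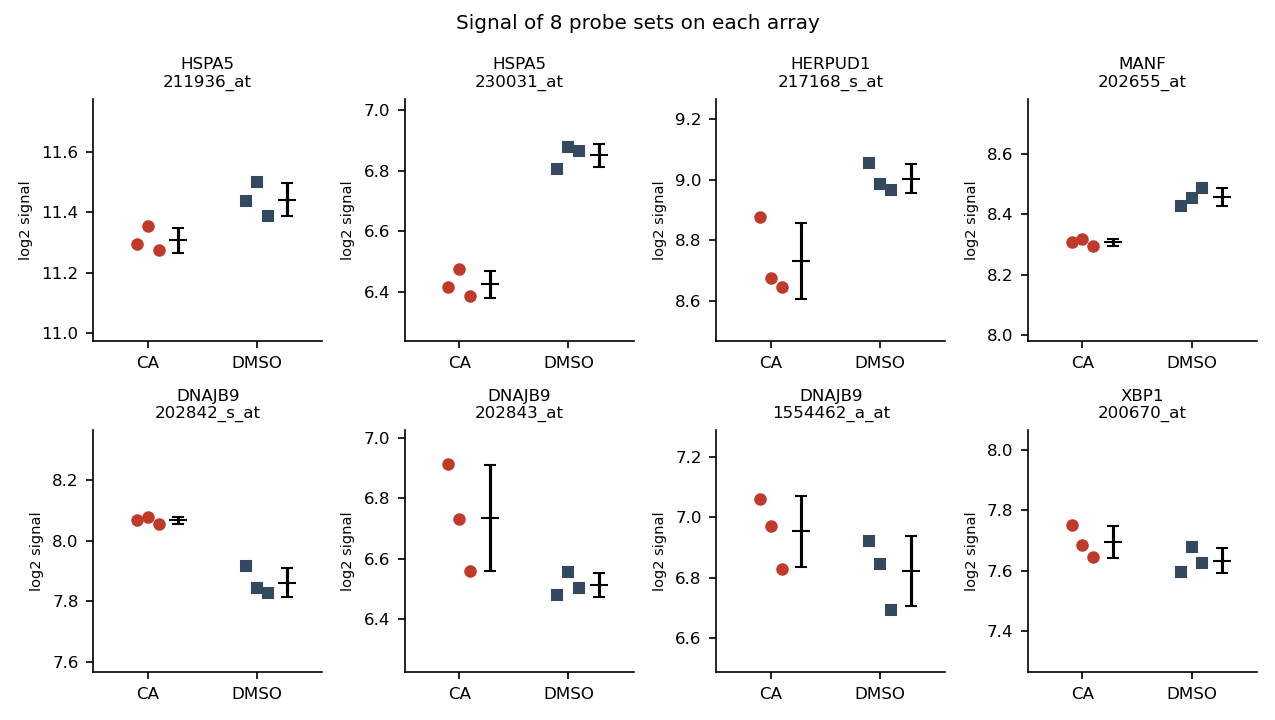
Log2 signal on each array for 8 probe sets of HSPA5, HERPUD1, MANF, DNAJB9 and XBP1, with CA on the left and DMSO on the right of each panel, and the mean with its SD (n = 3) beside the points. Each vertical axis spans the same range in log2 units around its own centre. The second HSPA5 probe set shows the widest gap, 6.39 to 6.47 in CA and 6.81 to 6.88 in DMSO.

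The 11 measured members with an ERSE or ERSE-II match had a median change of 0.00 and ran from -0.27 (HERPUD1) to 0.06 (XBP1). The 21 measured members with a window and no exact match also had a median of 0.00, and ran from -0.15 (DNAJC3) to 0.21 (DNAJB9). Of the members at an unadjusted p under 0.05, HSPA5 and HERPUD1 hold the elements printed above, and MANF, DNAJC3, DERL2 and DNAJB9 hold no exact match. The other 9 genes with a match had fitted changes between -0.03 and 0.06. Of the 11 with a match, 6 fitted changes lay above 0 and 5 below. Of the 21 without an exact match, 11 lay above and 9 below, and EIF2AK3, at 0.00 after rounding, was counted in neither. The difference between the sets was not tested.

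**Figure D5:**
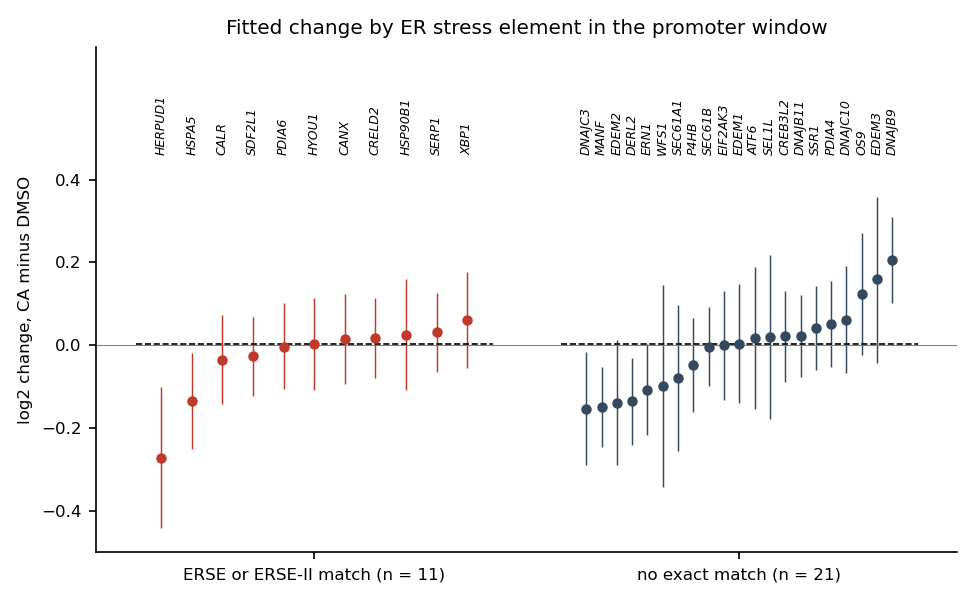
Fitted log2 change (CA minus DMSO) with its 95% confidence interval for members with an ERSE or ERSE-II match in the promoter window (11 genes, left) and with no exact match (21 genes, right), ordered by change. Dashed lines are the medians, 0.00 in each set.

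A wider list of 66 other ER genes also gave no calls. Of 62 measured, 0 were called by limma and 4, 6.5%, had an unadjusted p under 0.05, all below DMSO, where 8.61% of all measured genes were at that p and 5.02% were at it and lower. The median change of the list was -0.02. DDIT3 (CHOP), the transcription factor that the EIF2AK3 branch induces through ATF4, gave 7.43, 7.25 and 7.32 in CA, against 7.72, 7.71 and 7.60 in DMSO. The groups did not overlap, with a change of -0.34 (-0.49 to -0.19, limma adjusted p = 0.193). Other transcripts of that branch were not at an unadjusted p under 0.05, with -0.10 for ATF4, 0.06 for TRIB3, 0.12 for PPP1R15A and 0.05 for ATF3. SEC62, of the post-translational translocation route, had -0.14 (limma adjusted p = 0.398), and CREB3L4, an ER-anchored factor, had -0.21 (limma adjusted p = 0.405). The oligosaccharyltransferase genes STT3A, STT3B, DDOST, RPN1, RPN2 and DAD1 all lay between -0.02 and 0.03.

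Calls among the members depended on the settings. With a prior variance that follows the signal, 3 of the 35 were called by limma, where 1.23% of all measured genes were: HERPUD1 (adjusted p = 0.0261) and HSPA5 (0.0486) lower, and DNAJB9 higher (0.0309). Over all 19 alternatives, or 18 for HERPUD1, the adjusted p ran to 0.975 for HERPUD1 and to 0.9999 for HSPA5 and DNAJB9. With a filter at the 75th percentile of signal DNAJB9 was called (limma adjusted p = 0.0491), 1 of 33 measured ER genes. Over the whole array 162 probe sets were called with that filter, against 26 in the main fit. On the scale of the 3′ probe sets of the added control RNAs, which moves the median of all measured genes to 0.20, HSPA5, MANF, DNAJC3 and DERL2 lay above 0, at 0.056 to 0.075, HERPUD1 stayed below 0 at -0.06, and DNAJB9 was at 0.41. Called on that scale, all above DMSO, were 5 of the 35: DNAJB9, DNAJC10, EDEM3, XBP1 and OS9. Of all 27307 tested probe sets, 3594 were called on that scale. Relative to the shifted median, HSPA5, MANF, DNAJC3, DERL2 and HERPUD1 lay below.

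The arrays correlated with each other at 0.997. CA array 1 had a score of -19.0 on the second principal component, which put it away from the other 5 arrays at 0.34 to 7.20. Without CA array 1, 0 of the 35 genes were called and 7 of the 35 had an unadjusted p under 0.05, where 11.08% of all measured genes did. Of 2 labelling measures taken from transcripts of the cells, 1 differed between the groups without overlap. The actin 3′ probe set exceeded the 5′ one by 1.14, 1.18 and 1.31 log2 units in CA, against 1.45, 1.49 and 1.40 in DMSO. The same difference for GAPDH was 0.63, 0.58 and 0.60 in CA, against 0.62, 0.64 and 0.65 in DMSO, and overlapped. The 3′ probe sets of the added control RNAs averaged 8.24, 8.14 and 8.13 in CA, against 8.28, 8.42 and 8.43 in DMSO, without overlap. Their 5′ probe sets overlapped, at 6.630 to 6.825 in CA and 6.693 to 6.841 in DMSO. With the mean actin and GAPDH difference as a covariate, added after the data were seen, 0 of the 35 genes had an unadjusted p under 0.05 and 4.32% of all measured genes did. HERPUD1 was then at -0.46 and the second HSPA5 probe set at -0.49. The actin difference goes with the group, so this fit cannot separate the 2. For the brightest HSPA5 probe set the change was -0.134 without and -0.138 with the covariate, and its standard error 0.049 and 0.142. For DNAJB9 the change was 0.205 and 0.174, and the standard error 0.044 and 0.128. Of 9 K562 erythroid markers, 7 had a single-symbol probe set and all 7 were above the filter, while 10 of 17 measured markers of other cell types were above it, EPCAM, KRT19 and CD3D among them. Summed log2 levels did not overlap for the erythroid markers, 65.8 to 66.1 in CA and 65.2 to 65.6 in DMSO, and for the B cell markers, 7.39 to 7.66 in CA and 7.09 to 7.30 in DMSO, and their part in the results was not tested. Among the erythroid markers NFE2, TAL1, TFRC, GATA1 and EPOR had higher means in CA, and KLF1 and HBZ lower ones. The B cell sum held CD79A, at 4.77 in CA and 4.62 in DMSO, and MS4A1, below the filter at 2.79 and 2.60. Of the plasma cell markers, of a cell type with a high secretory load, JCHAIN and MZB1 were below the filter and SDC1 above it, at 4.02 in CA and 3.91 in DMSO.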

How the data were processed

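RNA from K562 wells with CA or DMSO was hybridised to Affymetrix Human U133 Plus 2.0 arrays, 3 per group. The authors deposited log2 values for each probe set, made with RMA in the affy package per the submitters' processing notes (version not given in the sources used here). RMA equalises probe intensities between arrays, so a shift common to most transcripts cannot be seen, and it compresses small changes of dim probe sets.

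Left out were 62 control probe sets. Tested were probe sets in the brighter 50% by mean over 6 arrays, a mean of at least 3.49. Genes were named from the platform annotation, updated by gene ID. For the ER genes 0 symbols changed. A gene was read from its brightest tested single-symbol probe set. CA minus DMSO was fitted over all 27307 probe sets with lmFit and eBayes (limma 3.58.1, run in R 4.3.3), without a block and 2-sided, with Benjamini-Hochberg adjustment over all of them. The test was checked on simulated data. The number of arrays limits the precision, and 3 against 3 allows no exact permutation p below 0.1.

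The members and lists were chosen with earlier results of these data known. Named in full were the sensors, XBP1, HSPA5, HSP90B1, HERPUD1, DNAJB9 and up to 12 further members at an unadjusted p under 0.05. From the wider list, up to 3 per direction at that p were named. Other genes were chosen after their values were seen. Alternatives covered variance prior, filter, scaling, probe set choice, array weights, replicate block and leaving out each array.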

Additional observations from a re-analysis of the deposited data

How the results depend on the processing

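The 26 probe sets called over the whole array became 285 with a prior variance that follows the signal, 162 with a filter at the 75th percentile, 3594 with scaling to the 3′ controls, 10 with no moderation, 5 with no filter, 1 without shared probe sets, and 0 with the actin and GAPDH covariate (added after the data were seen). Without 1 array at a time they numbered 2 to 6. The count of called ER genes stayed at 0 except with the signal-dependent variance, the 75th percentile filter and 3′ control scaling. It was 3 of 35 with the signal-dependent variance, where 1.23% of all measured genes were called. With the filter it was 1 (DNAJB9, limma adjusted p = 0.0491), where 33 genes were measured. With 3′ control scaling it was 5 of 35, all higher (DNAJB9, DNAJC10, EDEM3, XBP1 and OS9), where 3594 of all 27307 tested probe sets were called. ER genes at an unadjusted p under 0.05 numbered 6 of 35, 17.1%, where 8.61% of all measured genes reached that p. They were 7 of 33 with the 75th percentile filter, where all genes gave 13.21%, and 22 with 3′ control scaling, where all genes gave 51.06%. They were 2 with 5′ control scaling (4.24%), 0 with the covariate (4.32%), and 4 to 7 without 1 array at a time (6.78% to 11.08%). Their median change of 0.00 was 0.209 with 3′ and 0.041 with 5′ control scaling, where all measured genes had 0.197 and 0.030. It was -0.015 with centring and -0.023 without shared probe sets, where 27 genes were measured. Why these settings differ was not tested.

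With the replicate number as a block, 0 probe sets and 0 ER genes were called and 6 ER genes had an unadjusted p under 0.05, where 8.04% of all measured genes did. Nothing states that equal numbers pair the samples. Deviations of same-numbered arrays correlated at -0.07, 0.01 and 0.06, and CA arrays 1 and 2 correlated best with another number. With 3 arrays per group these correlations show no pairing and cannot exclude one. HERPUD1, HSPA5, MANF, DERL2 and DNAJC3 stayed below 0 and DNAJB9 above 0 without each array in turn.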
